A study of Mus musculus with 6 samples.

Results

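The zinc, copper and iron handling genes described here are the zinc transporter families Slc30a and Slc39a (without Slc30a8), the metallothioneins and their regulator, the copper transporters, and the core genes of iron uptake, export, storage and sensing. They were chosen by gene symbol from a fixed list and from these family names, with no measured value in the rule itself, and 39 of the 40 genes so named were measured, out of 19937 genes with a probe set of a single symbol. Slc11a1 was not analysed here. Pancreatic islets were taken from 3 control and 3 Sox17-GOF (gain of function) mouse samples on a C57BL/6 background, backcrossed from outbred stock, and the methods give male mice for this system. All 6 samples were 16 weeks old, all carried Ins2-rtTA, and all had received doxycycline in food and water for 24 hours. Only the Sox17-GOF samples also carried tetO-Sox17, so that doxycycline switched on the transcription factor Sox17 under an activator driven by an insulin promoter. The transgene was thus directed to insulin-producing cells, whereas the arrays read RNA of whole isolated islets, in which fewer cells of a type and less RNA per cell cannot be told apart. The methods call the samples independent biological triplicates, and each was hybridised to 1 Affymetrix Mouse Gene ST array. Levels are given as deposited, on the log2 scale, and a difference is always Sox17-GOF minus control. The study used this comparison to ask what a short pulse of Sox17 does to islet gene expression.

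Zinc is stored in the insulin granule, where it binds insulin, and the transporter that carries it there is encoded by Slc30a8. Slc30a proteins (ZnT) move zinc out of the cytosol, into vesicles or out of the cell, and Slc39a proteins (ZIP) move it into the cytosol. Metallothioneins are small cysteine-rich proteins that bind zinc and copper. The genes Mt1 and Mt2 are turned on by the zinc sensor MTF1 through metal response elements in their promoters. Cellular iron is set by transferrin and its receptor, the importer Slc11a2, the exporter Slc40a1 and the ferritin shell, whose mRNAs are controlled by the iron regulatory proteins encoded by Aco1 and Ireb2.

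Of the genes measured, 33 had a promoter window in RefSeq (mouse GRCm38.p6), each running from 250 bases before to 50 bases after a transcription start. Slc11a2, Slc40a1, Trf, Slc39a4, Slc39a6 and Slc39a14 had none. The core of the metal response element was searched on both strands as TGCACNC and TGCGCNC. At least 1 match lay in 25.7% of all 32851 windows of 300 bases, at least 2 in 7.11%, at least 3 in 1.97% and at least 4 in 0.517%. Among the 33 genes, each counted by its window with the most matches, 19 held a match, and 8 held 2 or more. Some genes had 2 windows, so these counts of genes are not directly comparable with the shares of windows. Mt2 held 4, Mt1, Slc30a4 and Slc30a10 held 3, and Slc30a1, Slc30a2, Atp7a and 1 of the 2 windows of Tfrc held 2. The windows of Mtf1, Ftl1, Fth1, Ireb2, Slc30a7, Slc39a7 and Slc39a10 held none of these letters. A match describes the sequence only and is not a binding site. Counts and distances depend on the RefSeq start used for each window, and whether islets use that start was not tested. The stretch before the Mt2 start and the matches of Mt1, Mt2 and Slc30a1 are shown because the metallothioneins had the largest differences among the genes described, and Slc30a1, another gene known to respond to zinc, is set beside them. All are on the + strand of the build, with the matches in capitals, and a match on the opposite strand reads GNGTGCA or GNGCGCA.
Mt2, 250 bases before the start, chr8:94172368-94172617: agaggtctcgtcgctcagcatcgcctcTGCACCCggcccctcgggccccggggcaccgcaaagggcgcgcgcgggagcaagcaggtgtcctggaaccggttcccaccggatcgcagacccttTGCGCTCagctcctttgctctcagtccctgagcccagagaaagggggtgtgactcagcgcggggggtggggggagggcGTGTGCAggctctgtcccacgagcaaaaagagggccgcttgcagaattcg
Mt2, 5 bases after the start, chr8:94172614-94172636: ttcgggtcGTGCGCAggcccagg
Mt1, 23 bases before the start, chr8:94179058-94179080: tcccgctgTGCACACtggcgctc
Mt1, 3 bases after the start, chr8:94179083-94179105: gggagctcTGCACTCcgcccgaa
Mt1, 21 bases after the start, chr8:94179101-94179123: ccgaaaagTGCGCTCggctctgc
Slc30a1, 43 bases before the start, chr1:191906730-191906752: ggggttccGAGTGCAaagcaaag
Slc30a1, 31 bases after the start, chr1:191906803-191906825: tccgggccGAGCGCAgtcgccgc

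Sox17 itself was at 5.50, 5.72 and 5.71 in the control and at 6.35, 6.22 and 6.36 in the Sox17-GOF islets. The difference was 0.67 ± 0.09 (SE, n = 3 per group, limma adjusted p = 0.00876), so the arrays went with their labels. Over all probe sets, arrays of one group correlated at 0.989 to 0.995. The genotypes lay apart on the principal component with the most variance (48.4%), and the next (19.8%) set Sox17-GOF replicate 3, at -26.3, apart from replicates 1 and 2, at 17.4 and 13.1. Ins2 lay between 13.02 and 13.12 in all 6 arrays, and no beta-cell marker was dim. The mean level of the 10 acinar markers measured was 10.47 to 11.43 over the 6 arrays, so exocrine RNA was present in every sample.

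None of the 39 metal handling genes passed the threshold after Benjamini-Hochberg adjustment over all probe sets with a symbol, in limma or in the methods' t-test. The smallest adjusted p in limma was 0.0792, for Ftl1, and the largest was 0.931. In the same fit 4.93% of the probe sets with a symbol passed, and 1039 genes did, which is 5.21% of all genes, 552 higher and 487 lower in Sox17-GOF islets. The differences of the metal handling genes ran from -0.97 to 0.49 with a median of -0.02, beside a median of -0.01 over all genes. Of the 39, 18 were above 0 and 21 below, beside 9387 above and 10550 below of all genes. An unadjusted limma p under 0.05 was found for 12 of them (30.8%), 4 higher and 8 lower, where 19.7% of all genes had one (8.93% higher and 10.7% lower). The 2 genotypes did not overlap for 12 (30.8%), again 4 higher and 8 lower, where 25.5% of all genes did not (14.2% lower). At the thresholds of the methods, an unadjusted p under 0.05 by the methods' t-test with a fold of at least 1.3, there were 2 (5.13%), Atp7a and Ftl1, both lower, where 7.42% of all genes passed. A p that misses the threshold does not show that a gene was the same in both genotypes, and the width of each interval is given by the plot of all differences.

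**Figure D1:**
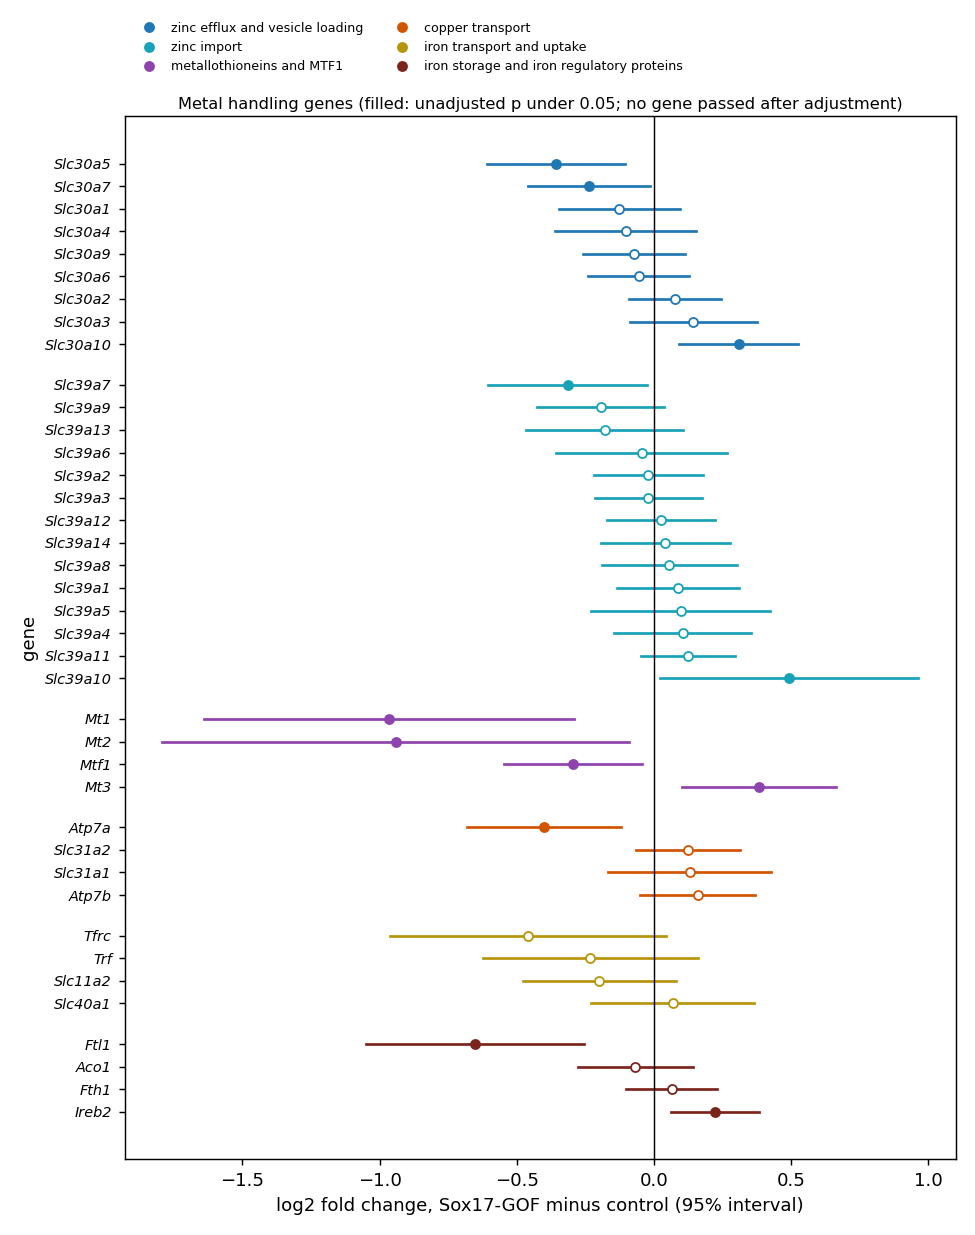
Difference in log2 level between Sox17-GOF and control islets for each of the 39 genes, ordered within 6 roles, with 95% intervals from limma (n = 3 per group). Filled points had an unadjusted p under 0.05, the widest intervals belonged to Mt2 and Mt1, at -0.94 and -0.97, and most zinc transporters lay within 0.2 of 0.

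The 23 zinc transporters had a median difference of -0.02. An unadjusted p under 0.05 was found for 5 of them, 2 higher and 3 lower, where 19.7% of all genes had one. In the efflux family, 9 genes were measured and 3 had such a p. Slc30a5, which loads zinc into the early secretory pathway, was at 9.58, 9.48 and 9.38 in control and at 9.16, 9.28 and 8.93 in Sox17-GOF islets. All 3 Sox17-GOF arrays lay below all controls, and the difference was -0.36 ± 0.11 (SE, limma adjusted p = 0.120). Slc30a7, a transporter of the Golgi, was at 9.18, 9.12 and 9.19 in control and at 9.04, 8.99 and 8.75 in Sox17-GOF islets, again without overlap. Its difference was -0.24 ± 0.10 (SE, limma adjusted p = 0.236), and -0.15 without Sox17-GOF replicate 3. Slc30a10, a cell-surface exporter best known for manganese, was at 5.86, 5.77 and 5.78 in control and at 6.03, 6.03 and 6.28 in Sox17-GOF islets. These groups did not overlap either, and the difference was 0.31 ± 0.09 (SE, limma adjusted p = 0.117).

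Slc30a1, the zinc exporter of the plasma membrane and a known MTF1 target, was at 7.91, 7.86 and 8.13 in control and at 7.91, 7.76 and 7.86 in Sox17-GOF islets. The groups overlapped, the difference was -0.13 ± 0.09 (SE, limma adjusted p = 0.541), and its 95% interval ran from -0.35 to 0.09. Without control replicate 3, the highest of the controls, it was -0.05. The other members of this family differed by little. Slc30a4 was at -0.10, Slc30a9 at -0.07, Slc30a6 at -0.06, Slc30a2 at 0.08 and Slc30a3, the transporter of synaptic vesicles, at 0.14, all with overlap between the genotypes. With an array left out, Slc30a4 ran from -0.21 to -0.02, Slc30a9 from -0.12 to -0.02, Slc30a6 from -0.10 to -0.02, Slc30a2 from 0.05 to 0.10 and Slc30a3 from 0.09 to 0.22.

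Among the 14 importers, 8 differences were above 0 and 6 below, with a median of 0.03. Of these, 2 had an unadjusted p under 0.05, where 19.7% of all genes had one. Slc39a7, which releases zinc from the endoplasmic reticulum, was at 9.80, 9.68 and 9.81 in control and at 9.58, 9.60 and 9.17 in Sox17-GOF islets. The groups did not overlap, and the difference of -0.31 ± 0.12 (SE, limma adjusted p = 0.228) was -0.18 without Sox17-GOF replicate 3. Slc39a10, an importer of the plasma membrane, was at 8.61, 8.41 and 8.20 in control and at 9.28, 8.95 and 8.47 in Sox17-GOF islets. Its difference was 0.49 ± 0.20 (SE, limma adjusted p = 0.243), the largest above 0 among the 39 genes, but Sox17-GOF replicate 3 lay below control replicate 1. Without Sox17-GOF replicate 1, the highest array, it was 0.30. Slc39a11 was higher without overlap, by 0.12 (limma adjusted p = 0.421). Slc39a9 was at -0.19, and at -0.29 without Sox17-GOF replicate 1. Slc39a13 was at -0.18, and at -0.048 without Sox17-GOF replicate 3. Slc39a6, Slc39a2 and Slc39a3 were at -0.04, -0.02 and -0.02. Slc39a14 and Slc39a8, which also carry iron and manganese, were at 0.04 and 0.06. Slc39a1 was at 0.09, while a dimmer probe set of the same gene gave -0.12, so its probe sets differed in sign. Slc39a5 and Slc39a4 were both at 0.10. Apart from Slc39a1, Slc39a9, Slc39a11 and Slc39a13, the importers without an unadjusted p under 0.05 changed sign with the array left out. Slc39a12, at 0.02, was the only gene of the 39 whose mean lay under the 20th percentile of all values (4.63) in both groups, and it is near background.

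The metallothioneins and MTF1 were the role in which all 4 genes had an unadjusted p under 0.05, 3 lower and 1 higher. All 4 were without overlap between the genotypes. Over all genes, 19.7% had such a p and 25.5% were without overlap. Mt1 was at 11.01, 11.21 and 11.24 in control and at 9.55, 10.13 and 10.87 in Sox17-GOF islets. Mt2 was at 10.97, 10.88 and 10.86 in control and at 9.10, 9.99 and 10.80 in Sox17-GOF islets. For both genes the controls lay close together and the Sox17-GOF arrays were spread out, with replicate 1 lowest and replicate 3 just under the controls. The range over the 3 Sox17-GOF arrays was 1.32 for Mt1 and 1.71 for Mt2, the widest of the 39 genes. The mean difference was -0.97 ± 0.29 for Mt1, a level 1.95-fold lower (SE, limma adjusted p = 0.115, 95% interval -1.64 to -0.29). It was -0.94 ± 0.37 for Mt2, 1.92-fold lower (SE, limma adjusted p = 0.219, 95% interval -1.79 to -0.09). Neither passed the threshold. Without Sox17-GOF replicate 3 both did, at -1.31 (limma adjusted p = 0.0113) for Mt1 and -1.36 (limma adjusted p = 0.0274) for Mt2, and without Sox17-GOF replicate 1 they were at -0.65 (limma adjusted p = 0.161) and -0.51 (limma adjusted p = 0.276). Mt1 and Mt2 are near neighbours with similar coding sequences, and it was not tested whether their probe sets read each other's mRNA.

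**Figure D2:**
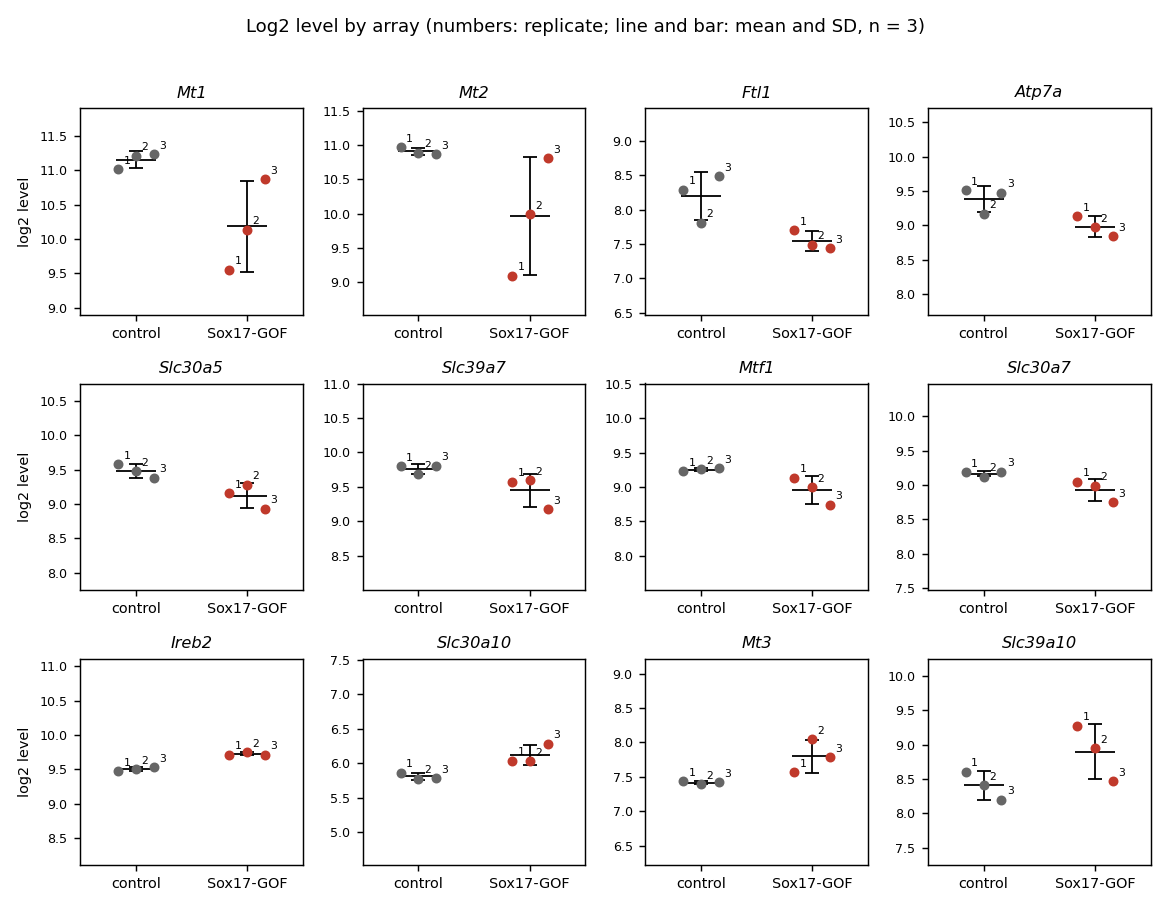
Log2 level on each array for the 12 genes with an unadjusted p under 0.05, in control and Sox17-GOF islets, with the replicate number at each point and the mean and SD as a line and bar (n = 3). Every panel spans the same number of log2 units, and the spread of Mt1 and Mt2 among Sox17-GOF arrays stands out against the tight Ireb2 values.

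Mt3, the metallothionein best known from brain, was at 7.43, 7.39 and 7.42 in control and at 7.56, 8.04 and 7.79 in Sox17-GOF islets. It was higher on all 3 Sox17-GOF arrays, by 0.38 ± 0.12 (SE, limma adjusted p = 0.134), opposite to Mt1 and Mt2 and with another order of the replicates. Mtf1, the zinc-sensing activator of Mt1, Mt2 and Slc30a1, was at 9.23, 9.25 and 9.27 in control and at 9.14, 8.996 and 8.74 in Sox17-GOF islets. It was lower on all 3 Sox17-GOF arrays, by -0.29 ± 0.11 (SE, limma adjusted p = 0.195), and its lowest array was replicate 3, the one on which Mt1 and Mt2 were nearest to the controls. Without that array the Mtf1 difference was -0.18.

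Markers of other cell types also varied over the 3 Sox17-GOF arrays. The mean of the 10 acinar markers was 10.47, 11.19 and 11.43 in Sox17-GOF replicates 1, 2 and 3, against 11.05 to 11.37 in control islets, none of the 10 was dim, and 1 of them passed the test, lower. The mean of the 6 duct markers was 7.37, 7.66 and 8.24, against 7.37 to 7.54 in control islets. Duct markers included 1 dim gene, and none passed. The mean of the 10 stellate and fibroblast markers was 6.80, 7.19 and 7.27, against 6.45 to 6.80, and none passed. All 10 differences were above 0, with a median of 0.32. An unadjusted limma p under 0.05 was found for 6 of them, all higher, where 8.93% of all genes had one higher. Within the Sox17-GOF arrays these 3 lists had the order of Mt1 and Mt2, with replicate 1 lowest and replicate 3 highest, and Slc39a10 had the opposite order. The same order was found for the 12 leukocyte and macrophage markers (6.56, 6.68 and 6.95, against 6.51 to 6.99 in control islets), the 10 endothelial markers (7.88, 7.90 and 7.998, against 7.97 to 8.03) and the 6 Schwann and glial markers (5.94, 6.05 and 6.06, against 5.92 to 5.96), of which 1 endothelial gene passed, lower. It was not found for the 7 alpha, delta and PP markers (11.63, 11.37 and 11.69, against 11.57 to 11.70) or the 3 erythroid markers (6.05, 5.96 and 6.00, against 5.92 to 6.09), and none of these passed. On replicate 3 the acinar mean was above every control, and Mt1 and Mt2 were below every control. The 13 stress response genes had means of 7.59, 7.53 and 7.76, against 7.53 to 7.70 in control islets, with 1 higher and 1 lower. The 8 beta-cell markers had means of 10.51, 10.46 and 10.37, against 10.87 to 10.90 in control islets, with 4 of 8 lower. Those 4 were Ucn3 (-1.03), Slc2a2 (-1.01), G6pc2 (-0.74) and Pdx1 (-0.47). Ins2 and Mafa were both at -0.01, Iapp at -0.09 and Nkx6-1 at -0.17, so the lower mean came mostly from part of the list. Of all genes, 2.77% passed higher and 2.44% lower. The order of the beta-cell mean over the Sox17-GOF arrays was opposite to that of Mt1 and Mt2 and the same as that of Slc39a10. The part of these cell types in the differences of the metal handling genes was not tested.

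**Figure D3:**
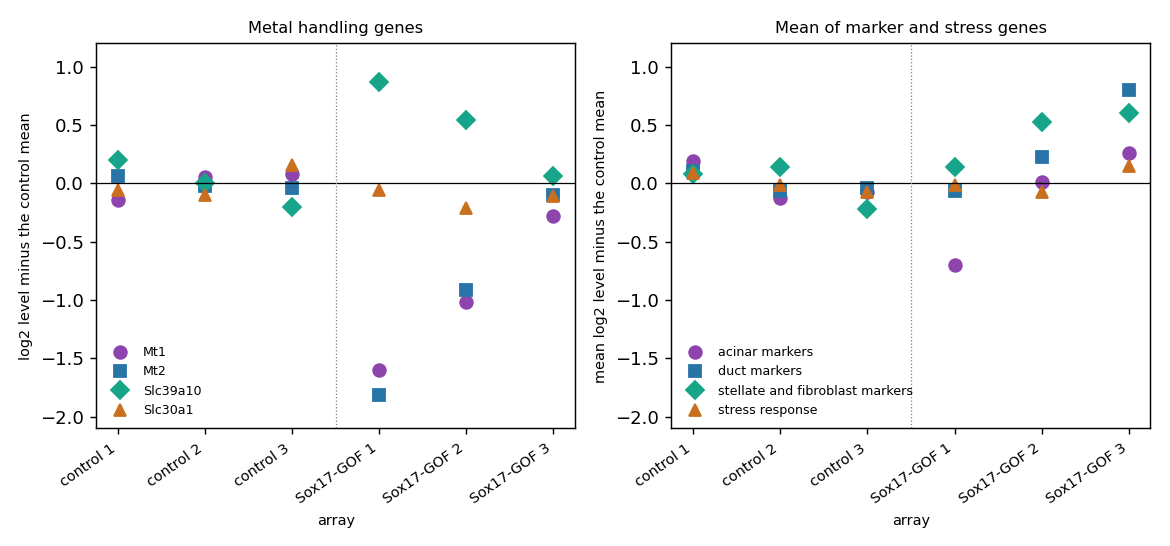
Left, log2 level minus the control mean on each array for Mt1, Mt2, Slc39a10 and Slc30a1, and right, the mean log2 level minus the control mean for 3 marker lists and the stress response genes. Among the Sox17-GOF arrays, Mt1, Mt2 and the acinar markers are lowest on replicate 1 and highest on replicate 3, where Mt1 and Mt2 are below every control and the acinar mean is above, and Slc30a1 stays near 0.

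Of the 4 copper transporters, 1 had an unadjusted p under 0.05, where 19.7% of all genes had one. Atp7a, the copper pump of the Golgi that supplies copper enzymes and exports copper, was at 9.51, 9.17 and 9.47 in control and at 9.13, 8.97 and 8.84 in Sox17-GOF islets. The groups did not overlap, though control replicate 2 lay just above Sox17-GOF replicate 1. The difference was -0.40 ± 0.12, a level 1.32-fold lower (SE, limma adjusted p = 0.115). Atp7b, the related copper pump of liver, had a difference of 0.16 ± 0.09 (SE, limma adjusted p = 0.399). Slc31a1, the copper importer of the plasma membrane, was at 8.98, 9.10 and 8.89 in control and at 9.06, 9.38 and 8.92 in Sox17-GOF islets. Its genotypes overlapped, and the difference of 0.13 ± 0.13 (SE, limma adjusted p = 0.655) was 0.0007 without Sox17-GOF replicate 2. Slc31a2 was at 0.12 ± 0.08 (SE, limma adjusted p = 0.485).

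None of the 4 genes of iron transport and uptake had an unadjusted p under 0.05, where 19.7% of all genes had one. All 4 overlapped between the genotypes. Tfrc, the transferrin receptor, was at 7.69, 8.26 and 8.17 in control and at 7.77, 7.14 and 7.84 in Sox17-GOF islets. Its difference of -0.46 ± 0.22 (SE, limma adjusted p = 0.309) was -0.24 without Sox17-GOF replicate 2, its lowest array. Slc11a2, which imports ferrous iron, was at 7.38, 7.37 and 6.97 in control and at 7.06, 6.996 and 7.07 in Sox17-GOF islets, a difference of -0.20 ± 0.12 (SE, limma adjusted p = 0.434). Here the Sox17-GOF arrays agreed closely and control replicate 3 lay below them, and without that array the difference was -0.33. Slc40a1, which encodes the iron exporter ferroportin, was at 7.41, 7.58 and 7.32 in control and at 7.69, 7.26 and 7.56 in Sox17-GOF islets. Its difference was 0.07 ± 0.13 (SE, limma adjusted p = 0.837) with a 95% interval of -0.23 to 0.36, and -0.026 without Sox17-GOF replicate 1. Trf, which encodes transferrin, was at -0.23 ± 0.17 (SE, limma adjusted p = 0.530), with a control range of 6.56 to 7.29 that took in every Sox17-GOF value. It was -0.059 without control replicate 2 and -0.42 without control replicate 3.

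The iron storage genes split. Ftl1, the light chain of ferritin, was at 8.29, 7.81 and 8.49 in control and at 7.70, 7.49 and 7.44 in Sox17-GOF islets. The groups did not overlap, and the difference was -0.65 ± 0.17, a level 1.57-fold lower (SE, limma adjusted p = 0.0792, 95% interval -1.05 to -0.26). Without control replicate 2, the lowest control, it was -0.85 and passed the threshold (limma adjusted p = 0.0304). The other 3 probe sets that list Ftl1 share it with the symbols Mir692-2 and Mir692-3 and so lie outside the single-symbol rule. They gave -0.43, -0.38 and -0.29, with limma adjusted p of 0.0653, 0.133 and 0.168, and each was lower in Sox17-GOF islets without overlap. The brightest of the 3 was at 12.22, 12.16 and 12.30 in control and at 12.05, 11.60 and 11.89 in Sox17-GOF islets, and a mean over all 4, chosen after seeing the data, gave -0.44 (limma adjusted p = 0.0669). Ferritin has many processed copies in the genome, and which copies these probe sets read was not tested. Fth1, the heavy chain, was at 12.71, 12.72 and 12.75 in control and at 12.80, 12.73 and 12.84 in Sox17-GOF islets. Its difference was 0.07 ± 0.07 (SE, limma adjusted p = 0.693), with a 95% interval of -0.10 to 0.23.

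**Figure D4:**
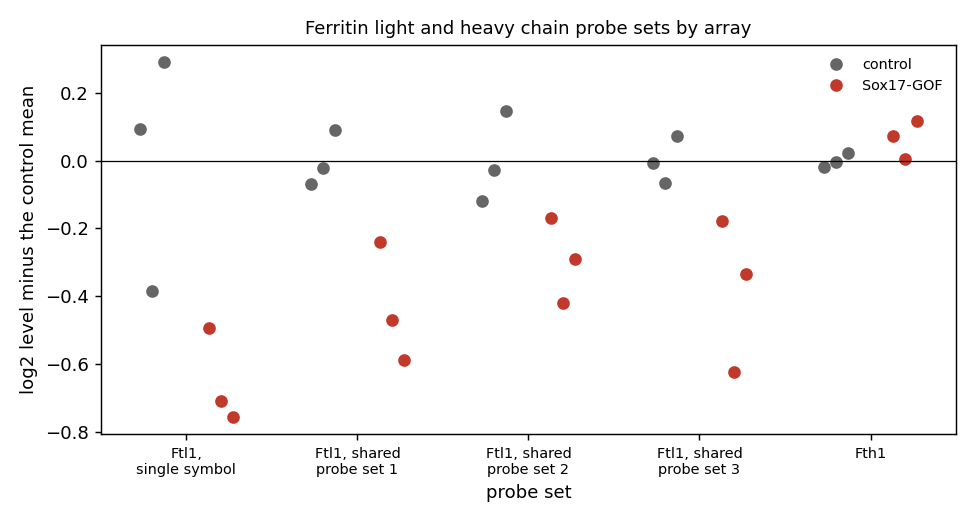
Log2 level minus the control mean on each array for the 4 probe sets that list Ftl1 and for Fth1, in control and Sox17-GOF islets. All Sox17-GOF points lie below all control points for each Ftl1 probe set, while the Fth1 points overlap near 0.

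Ireb2, which encodes iron regulatory protein 2, was at 9.47, 9.51 and 9.53 in control and at 9.71, 9.75 and 9.71 in Sox17-GOF islets. The groups did not overlap, and the SD was 0.03 in control and 0.02 in Sox17-GOF islets. The difference was 0.22 ± 0.07 (SE, limma adjusted p = 0.126, 95% interval 0.06 to 0.38), where limma sets the spread of each gene partly from all genes. Aco1, which encodes iron regulatory protein 1, also the cytosolic aconitase, was at 8.60, 8.47 and 8.55 in control and at 8.55, 8.54 and 8.32 in Sox17-GOF islets. These overlapped, with a difference of -0.07 ± 0.09 (SE, limma adjusted p = 0.754), which was 0.01 without Sox17-GOF replicate 3.

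In the wider zinc, copper and iron pathways, 98 of 104 listed genes were measured. They were listed from general knowledge but with earlier results of these data known, so the counts are not independent of these data. Of these, 4 passed the threshold, 2 higher and 2 lower, where 2.77% of all genes passed higher and 2.44% lower. The median difference of the 98 genes was -0.02. None of the 4 passed in the methods' t-test with the same adjustment. Fbxl5, which encodes the iron-sensing adaptor of the ubiquitin ligase that degrades iron regulatory proteins, was at 8.32, 8.35 and 8.40 in control and at 9.24, 9.20 and 8.95 in Sox17-GOF islets. It rose by 0.77 ± 0.10 (SE, limma adjusted p = 0.00588), with all 3 Sox17-GOF arrays above all controls, and passed in limma whichever of the 6 arrays was left out. It was the only gene called among 31 of iron uptake, storage and regulation, whose median was 0.02. Slc30a8, the zinc transporter of the insulin granule that the choice of genes left out, was at 12.80, 12.94 and 12.64 in control and at 12.25, 12.08 and 12.30 in Sox17-GOF islets. It fell by 0.58 ± 0.10 on the log2 scale (SE, limma adjusted p = 0.0238), as the only one called of 7 other zinc genes, whose median was 0.01. Its call was lost without control replicate 1 (limma adjusted p = 0.0867) or control replicate 2 (0.0914), and without Sox17-GOF replicate 1 (0.0514) or Sox17-GOF replicate 2 (0.0734).

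Hspa9, a mitochondrial chaperone with a part in iron-sulphur cluster assembly, was at 11.52, 11.50 and 11.35 in control and at 11.10, 11.01 and 11.02 in Sox17-GOF islets. It fell by 0.41 ± 0.08 on the log2 scale (SE, limma adjusted p = 0.0301). It was the only call among 35 genes of haem and iron-sulphur clusters, where 2.44% of all genes were called lower. Of the 35, 28 were below 0, with a median of -0.10, beside 10550 below 0 of all 19937 genes. The Hspa9 call was lost without control replicate 1 or 2 (limma adjusted p = 0.114 and 0.122). It was also lost without any 1 of the Sox17-GOF arrays (0.0515, 0.0957 and 0.0664). Cdc14a, a phosphatase whose mRNA is among those described with an iron responsive element, was at 7.52, 7.40 and 7.52 in control and at 8.38, 7.90 and 8.21 in Sox17-GOF islets. It rose by 0.68 ± 0.13 (SE, limma adjusted p = 0.0251), as 1 of 5 such mRNAs measured outside the genes above, whose median was 0.30. Its call was lost without control replicate 1, 2 or 3 (limma adjusted p = 0.0812, 0.106 and 0.0724) and without Sox17-GOF replicate 3 (0.0581). None of 21 copper chaperones and copper enzymes passed in limma or the methods' t-test, and their median was 0.06. An unadjusted limma p under 0.05 was found for 4 of them, where 19.7% of all genes had one.

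**Figure D5:**
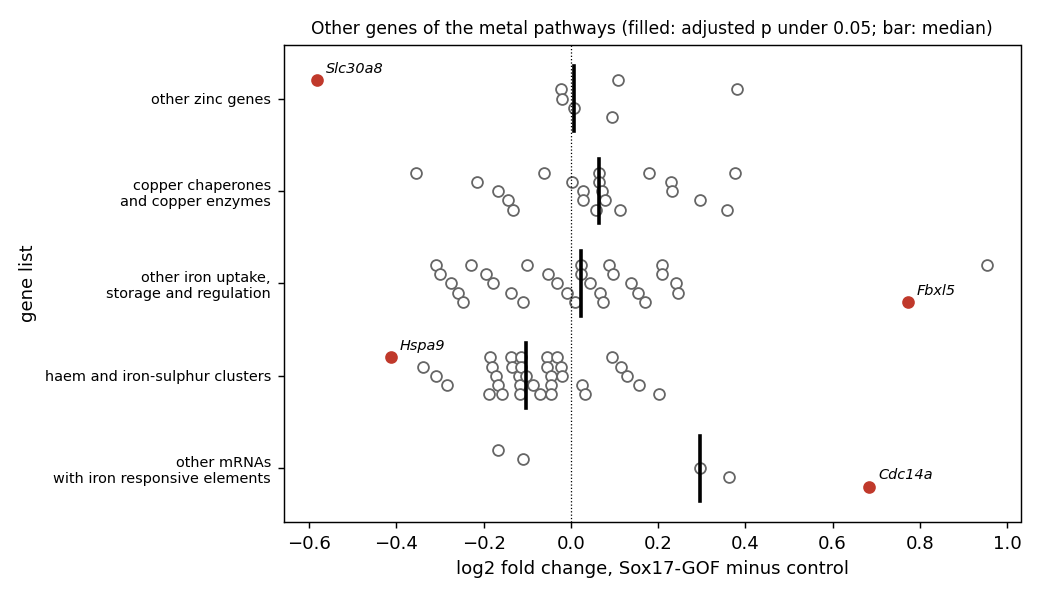
Difference in log2 level between Sox17-GOF and control islets for the 98 other measured genes of the zinc, copper and iron pathways, in 5 lists, with a bar at each median. Filled points passed an adjusted p of 0.05 in limma: Fbxl5 and Cdc14a above 0, Slc30a8 and Hspa9 below.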

How the data were processed

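The arrays measured RNA of whole islets, amplified with a NuGEN kit and biotin-labelled. The authors deposited log2 values from RMA (background correction, quantile normalization, summary per probe set). The methods name GeneSpring and the submitters' notes Affymetrix Expression Console for this, and a genome build was not given in the sources used here. RMA gives all arrays one distribution of probe intensities, so a shift of all genes would be lost. Nothing was rescaled.

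Samples were grouped by the genotype in the labels and compared by limma (version 3.58.1, in R 4.3.3) with lmFit and with eBayes without an intensity trend, with Benjamini-Hochberg adjustment over the 22961 of 34760 probe sets with a symbol, at 0.05. The brightest probe set with a single symbol stands for a gene. Named with all 6 values are the genes with an unadjusted p under 0.05, 12 genes picked for their role, and called genes of the other lists. The metal handling genes were picked by symbol, with no measured value in the rule, but the rule and the other lists were drawn up with earlier results of these data known. No list was tested as a set. The fit was checked on simulated arrays. As alternatives, each array was left out in turn, probe sets of a gene were averaged, the methods' t-test was run, the replicate number was entered as a block, dim probe sets were dropped, the adjustment took in all probe sets, and values were quantile-normalized again, centred on array medians, weighted by array or fitted with an intensity trend. The number of arrays limits the precision.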

Additional observations from a re-analysis of the deposited data

How the results depend on the processing

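Some of the 39 genes changed the sign of their difference under an alternative. With an array left out, Aco1 ran from -0.11 to 0.0067, Slc40a1 from -0.026 to 0.19, Slc39a12 from -0.034 to 0.088, Slc39a14 from -0.050 to 0.12, Slc39a2 from -0.060 to 0.035, Slc39a3 from -0.052 to 0.042, Slc39a4 from -0.0034 to 0.17, Slc39a5 from -0.059 to 0.21, Slc39a6 from -0.13 to 0.096 and Slc39a8 from -0.035 to 0.12. Slc39a3 was 0.016 after quantile normalization, Slc39a6 was 0.0054 with array weights, and Slc39a1 was -0.016 as the mean of its probe sets. The other genes kept their sign under every alternative run. The count of metal handling genes called was 0 under every alternative except leaving out arrays, where it ran from 0 to 2 (Ftl1 without control replicate 2, Mt1 and Mt2 without Sox17-GOF replicate 3). The number with an unadjusted p under 0.05 was 6 by the methods' t-test, 8 to 12 with an array left out, and at most 13 under any alternative. Of all probe sets with a symbol, 1133 were called. Adjusting over all probe sets gave 558, the methods' t-test with adjustment 71, and leaving out an array 385 to 1020. Of the other genes of the metal pathways, adjusting over all probe sets left 1 call (Fbxl5), the methods' t-test 0, and leaving out an array 1 to 3. Of the markers and stress genes, of which 8 were called, these gave 3, 0 and 3 to 8. Other alternatives raised the counts, to at most 1357 probe sets, 6 other genes of the metal pathways and 9 markers and stress genes.

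With the replicate number as a block, 720 probe sets, 0 metal handling genes, 2 other pathway genes (Fbxl5 and Cdc14a) and 3 markers were called, and Slc30a8 (limma adjusted p = 0.0755) and Hspa9 (limma adjusted p = 0.0666) were not. No pairing by number was seen. Deviations from the group means correlated at 0.05, -0.02 and -0.04 between arrays of the same number, and not every array correlated best with its own number. With 3 arrays per group, these values cannot exclude a pairing. With 3 arrays per group, an interval that spans 0 means that a difference was not detected, not that there was none. Signals near 4.63 lie close to background.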
